A study of Mus musculus with 4 samples.

Results

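The IL-10 and TGF-beta axis is described here by 8 of the 32285 genes in the deposited matrices, chosen by symbol. The members are the cytokine Il10 and its receptor chains Il10ra and Il10rb, the TGF-beta ligands Tgfb1 and Tgfb2, the TGF-beta receptors Tgfbr1 and Tgfbr2, and Tgfbi, which encodes an extracellular matrix protein induced by TGF-beta. The samples were 4 libraries of CD45+ leukocytes of the colonic lamina propria, taken with magnetic beads from mice labelled as 10 weeks old and given dextran sulfate sodium (DSS), a chemical that injures the colonic epithelium and causes colitis. Every library was made from a mixture of 3 mice, and no untreated library was analysed here. The study set AhR-null mice beside wild type littermates, where AhR is the aryl hydrocarbon receptor, a ligand-activated transcription factor. The labels give only DSS and a replicate number, so the libraries are called samples 1 to 4, no genotype was assigned and no test was made between samples. Ahr itself had 198, 142, 147 and 147 CPM (UMIs of the gene scaled by all UMIs of the class) in macrophage-like cells of samples 1 to 4. Monocyte-like cells had 144, 215, 101 and 114 CPM and Treg-like cells 88.6, 152, 149 and 168 CPM. The order of the samples thus differed between classes, and no genotype was read from these levels.

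IL-10 is an anti-inflammatory cytokine that binds the chain encoded by Il10ra and recruits the chain encoded by Il10rb, and the complex signals through JAK1, TYK2 and STAT3. TGF-beta is secreted in a latent form held by other proteins, is released by integrins and proteases, and signals through a complex of its type I and type II receptors to the SMAD proteins. In the gut both cytokines are known for restraining responses to commensal bacteria, IL-10 mainly from regulatory T cells (Tregs) and macrophages.

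Cells were sorted into 21 classes by markers that included none of the members, and a level is the summed UMI count of a gene as CPM, scaled by all UMIs of that class in that sample. UMIs are molecular tags that mark single captured RNA molecules. Of 43432 cells kept, 23033 fell in a class and 10472 were mixed and were left out. Mixed cells passed the markers of more than 1 lineage or of more than 1 subset of dendritic or innate lymphoid cells. T cells with both Cd4 and Cd8 were also counted as mixed. These mixed cells made up 19.4% to 29.7% of a sample, with a median of 14274 to 16499.5 UMIs against 6091 to 7464 over all kept cells. The classes held 42.7% to 49.7% of the UMIs of a member in sample 1 and 28.8% to 56.9% in sample 2. They held 41.5% to 68.9% in sample 3 and 41.1% to 66.0% in sample 4, and the rest lay in mixed and unclassed cells. The upper ends in samples 2, 3 and 4 came from Tgfb2, and no other member exceeded 37.8% in sample 2. Of 39 checks with markers held out of the gates, the named class ranked first in 31 and among the 3 highest in 38. The exception was Irf8, which ranked 4 in cDC1-like cells. The gamma-delta T-like class and the transitional class between monocytes and macrophages had no such check. The 16 classes with at least 50 cells in 2 or more samples are ranked below. No pair of samples shared more than 47 cell barcodes, 0.421% of the smaller library. A lower level can come from fewer expressing cells or from less RNA per cell, and sums over a class do not tell these apart.

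Il10 was highest in Treg-like cells, followed by the macrophage lineage, and it was low in other lymphocytes. In Treg-like cells (69 to 191 cells per sample) the level was 217, 365, 365 and 235 CPM in samples 1 to 4. Macrophage-like cells had 139.9, 160.2, 128 and 292 CPM, so Treg-like cells were higher in 3 of 4 samples and the ranges overlapped. Transitional cells, which passed both the monocyte and the macrophage gates, had 101, 192, 100.3 and 254 CPM. Monocyte-like cells spread further, with 68.2, 39.5, 131 and 197 CPM. Samples 3 and 4 were the higher pair in monocyte-like cells, as in neutrophil-like cells, which had 20.2, 29.0, 47.0 and 71.7 CPM. They were not the higher pair in Treg-like, macrophage-like or transitional cells. The Treg gate asked for 3 of the 4 markers Foxp3, Ikzf2, Il2ra and Ctla4, so a Treg-like cell could lack Foxp3. Other CD4 T-like cells were CD4 T cells with at most 1 of these markers detected. CD4 T cells between these limits were in neither class. Other CD4 T-like cells had 10.3, 40.6, 16.1 and 39.0 CPM, and B cell-like cells had 2.72, 7.59, 9.62 and 8.91 CPM. At the bottom of the order, NK and ILC1-like cells held 2, 0, 0 and 4 Il10 UMIs, at or near the 3 UMIs taken as the floor. Every neighbouring pair of classes in the order of Il10 levels overlapped over the samples.

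**Figure D1:**
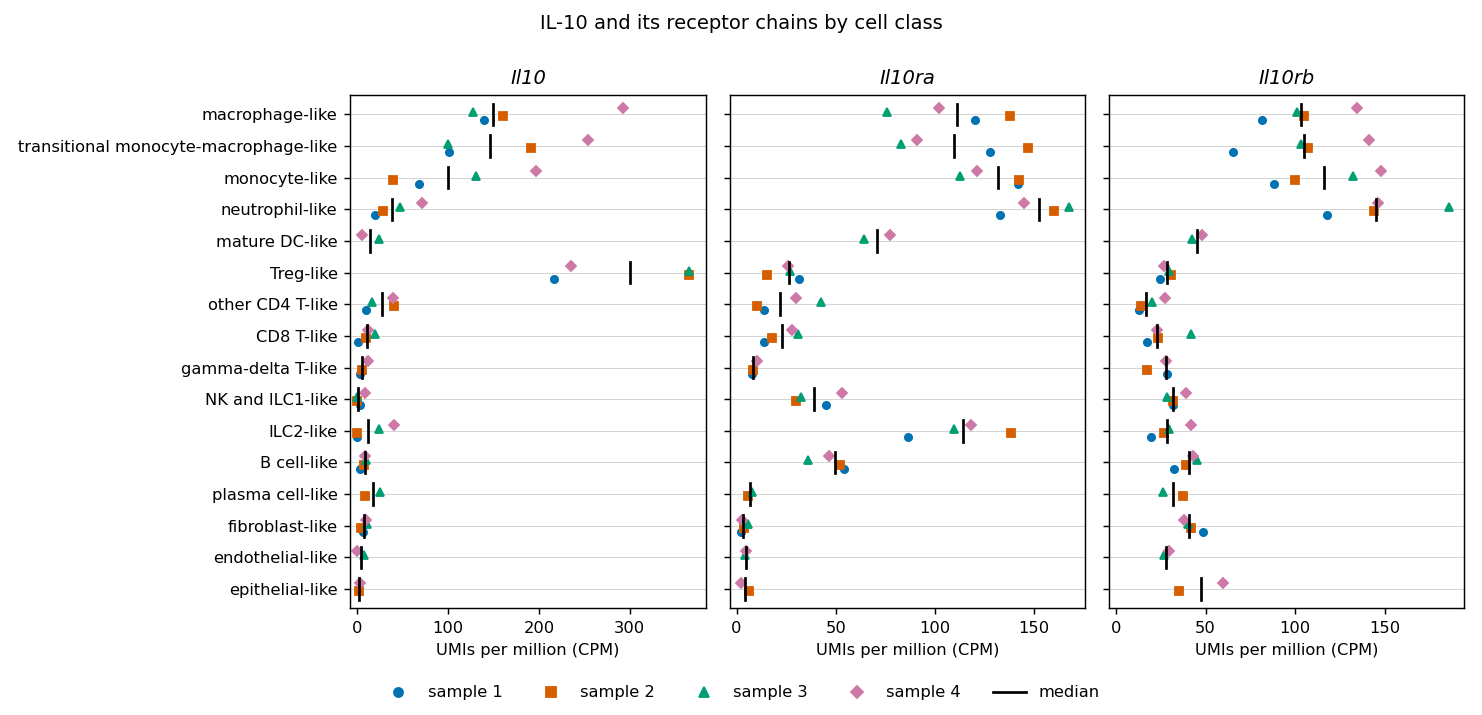
Level of Il10, Il10ra and Il10rb (CPM, linear axes that differ between panels) by cell class, with a point for each sample of at least 50 cells and a black line at the median. Il10 is highest in Treg-like cells at a median of 300.1 CPM, while Il10ra and Il10rb are highest in neutrophil-like cells at medians of 152 and 145 CPM.

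Treg-like cells were few, and most classed Il10 UMIs lay in myeloid cells. Macrophage-like cells held 9.98% to 18.6% of all Il10 UMIs of a sample, monocyte-like cells 1.66% to 14.5%, Treg-like cells 4.57% to 11.1% and neutrophil-like cells 1.34% to 6.98%. The neutrophil-like level of Il10 was 0.144 to 0.368 of the macrophage-like level of the same sample. Apoe and C1qb, abundant macrophage genes, stood at 0.0145 to 0.0175 and 0.00803 to 0.0148 of their macrophage-like level in the same neutrophil-like cells. In B cell-like cells Il10 stood at 0.0194 to 0.0753 of the macrophage-like level with C1qb at 0.00537 to 0.00946 and Apoe at 0.0327 to 0.0874. Within samples 1, 2 and 4 the B cell-like ratio of Il10 lay between those of C1qb and Apoe. In sample 3, from 15 UMIs, it was 0.0753, above the 0.0537 of Apoe, and the part of stray RNA in the B cell-like values was not tested.

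By their medians, the shares of cells with Il10 followed the levels in Treg-like, macrophage-like, monocyte-like, neutrophil-like and B cell-like cells, in that order. With each cell thinned to 1000 UMIs, an Il10 UMI was found in 14.5%, 26.7%, 28.8% and 14.6% of Treg-like cells of samples 1 to 4. The exact 95% binomial interval for sample 1, which rests on 69 Treg-like cells, ran from 7.17% to 25.0%, and for sample 3 from 22.5% to 35.8%. Macrophage-like cells gave 8.64%, 11.7%, 6.04% and 16.7%, monocyte-like cells 5.60%, 2.82%, 9.06% and 9.89%, and neutrophil-like cells 1.44%, 3.74%, 3.68% and 5.78%. B cell-like cells gave 0.259%, 0.637%, 0.778% and 0.325%. Fibroblast-like cells, which should lack Il10, gave 3.28% in sample 1 (2 of 61 cells), 0 of 75 cells in sample 2 (exact 95% upper limit 4.80%), 1.88% in sample 3 and 0.709% in sample 4. The interval of the fibroblast-like share in sample 1 ran from 0.400% to 11.3%. The fibroblast-like intervals of samples 1 and 2 take in the neutrophil-like and the monocyte-like shares of those samples, and that of sample 3 (0.691% to 4.04%) the neutrophil-like share, so at this number of cells a difference from that class was not detectable there. The neutrophil-like and monocyte-like shares were above the B cell-like share in every sample. Without thinning, the shares were 43.5% to 52.5% in Treg-like cells, 22.0% to 32.1% in macrophage-like cells and 1.55% to 4.67% in B cell-like cells. The median depth of those cells was 7633 to 10835.5 UMIs in Treg-like cells and 4296 to 5489.5 UMIs in B cell-like cells. Such intervals cover counting error only.

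**Figure D2:**
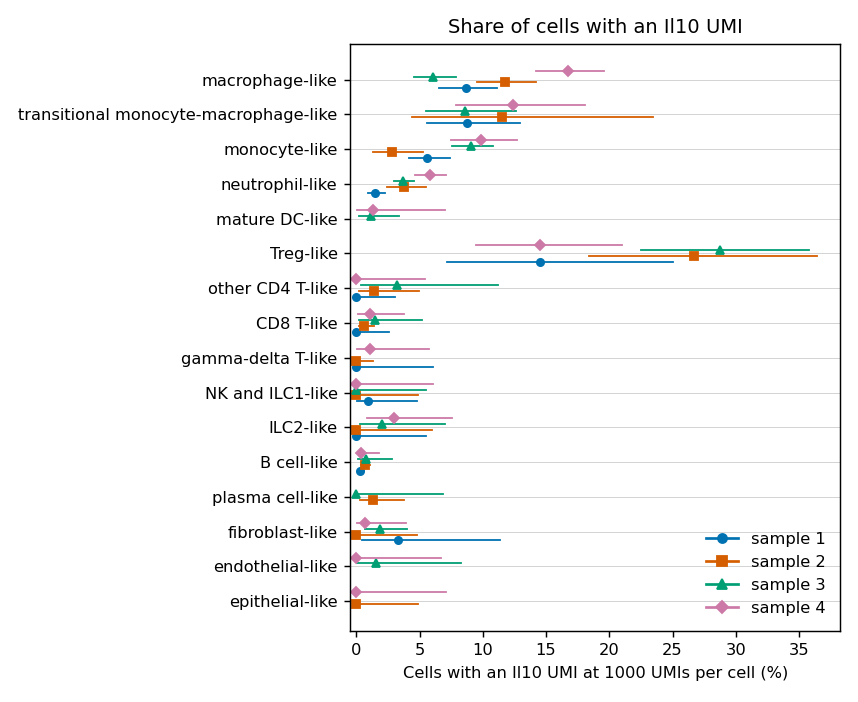
Share of cells with at least 1 Il10 UMI (percent, after thinning each cell to 1000 UMIs) by class and sample, with exact 95% binomial intervals as bars. Treg-like cells lie between 14.5% and 28.8%, and B cell-like cells between 0.259% and 0.778%.

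Among the ranked classes Il10ra, the ligand-binding chain, was highest in neutrophils, monocytes, ILC2 and macrophages and lowest in stromal and epithelial cells. The cDC2-like cells, too few to be ranked, had a median of 99.0 CPM over the 4 samples. Neutrophil-like cells had 133, 160.2, 167 and 145 CPM and monocyte-like cells 142, 142, 113 and 121 CPM. ILC2-like cells, an innate lymphoid population, had 86.5, 138, 109 and 118 CPM, which overlapped with the myeloid classes. Macrophage-like cells had 120.3, 138, 75.8 and 102 CPM. B cell-like cells lay lower, at 54.4, 52.0, 35.9 and 46.8 CPM, without overlap with those 4 classes. Treg-like cells had 31.5, 15.4, 27.0 and 25.8 CPM, and their median of 26.4 CPM ranked 9 of 16 classes. The other T cell classes had lower medians: 23.0 CPM in CD8 T-like, 22.0 in other CD4 T-like and 8.25 in gamma-delta T-like cells. The class with the most Il10 thus stood in the middle of the order for its receptor. Fibroblast-like cells had 2.38, 3.93, 5.79 and 2.52 CPM.

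The level of Il10rb, the chain that the receptors of IL-22 and related cytokines share, varied less between classes than Il10ra. Its class medians spanned 8.50-fold from other CD4 T-like to neutrophil-like cells, against 47.3-fold for Il10ra. Neutrophil-like cells had 118, 144, 186 and 146 CPM and macrophage-like cells 81.6, 105, 101 and 135 CPM. Fibroblast-like cells had 48.7, 41.9, 40.2 and 37.7 CPM, and epithelial-like cells 35.3 and 59.7 CPM in samples 2 and 4, which had 50 or more of them. Other CD4 T-like cells had 12.8, 14.0, 20.2 and 27.6 CPM. Il10rb overlaps the predicted protein-coding gene Gm21970 on the same strand, so its counts are uncertain. The ratio of Il10ra to Il10rb UMIs was 2.84 to 5.18 in ILC2-like cells, 0.901 to 1.13 in neutrophil-like cells and 0.0488 to 0.144 in fibroblast-like cells, and these ranges did not overlap. Such a ratio is read only between classes, since the genes differ in how well they are captured.

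Among the ligands, Tgfb1 was found in every class and Tgfb2 mainly in fibroblast-like cells, with a smaller signal in mature dendritic cells (DCs) and endothelial cells. Tgfb1 was highest in NK and ILC1-like cells, at 431, 447, 287 and 272 CPM. Monocyte-like cells followed with 293, 328, 216 and 195 CPM, and the ranges overlapped. B cell-like cells had 169, 208, 158 and 163 CPM and macrophage-like cells 192, 185, 128 and 115 CPM. In these 4 classes samples 1 and 2 lay above samples 3 and 4, which was not so in Treg-like, other CD4 T-like or neutrophil-like cells. Treg-like cells had 89.7, 173, 144 and 119.9 CPM and other CD4 T-like cells 73.1, 115, 88.7 and 71.2 CPM. Neutrophil-like cells were low, with 33.9, 58.4, 41.6 and 41.5 CPM, as were epithelial-like cells, with 9.33 and 8.71 CPM in samples 2 and 4.

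In fibroblast-like cells Tgfb2 had 99.9, 198, 217 and 224 CPM from 84, 151, 636 and 267 UMIs. Fibroblasts do not carry CD45, which the beads select, yet 62 to 320 fibroblast-like cells remained per sample, and they held 34.6% to 54.0% of all Tgfb2 UMIs of a sample. Mature DC-like cells had 60.0 CPM in sample 3, from 155 UMIs in 264 cells, and 12.0 CPM in sample 4, from 9 UMIs in 78 cells. In samples 1 and 2, with under 50 such cells, they had 1.93 and 23.1 CPM from 1 and 8 UMIs. Treg-like cells held 0, 11, 17 and 21 Tgfb2 UMIs, while other CD4 T-like cells held none in any sample. Over the 4 samples Tgfb2 was at least 6.05-fold higher in Treg-like than in other CD4 T-like cells and at least 19.0-fold higher in mature DC-like than in cDC2-like cells. Both bounds set the class without a UMI to a floor of 3 UMIs over the samples together. The bound for mature DC-like cells rests on sample 3 and was 3.56-fold without it, and that for Treg-like cells was 3.76-fold without sample 2.

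**Figure D3:**
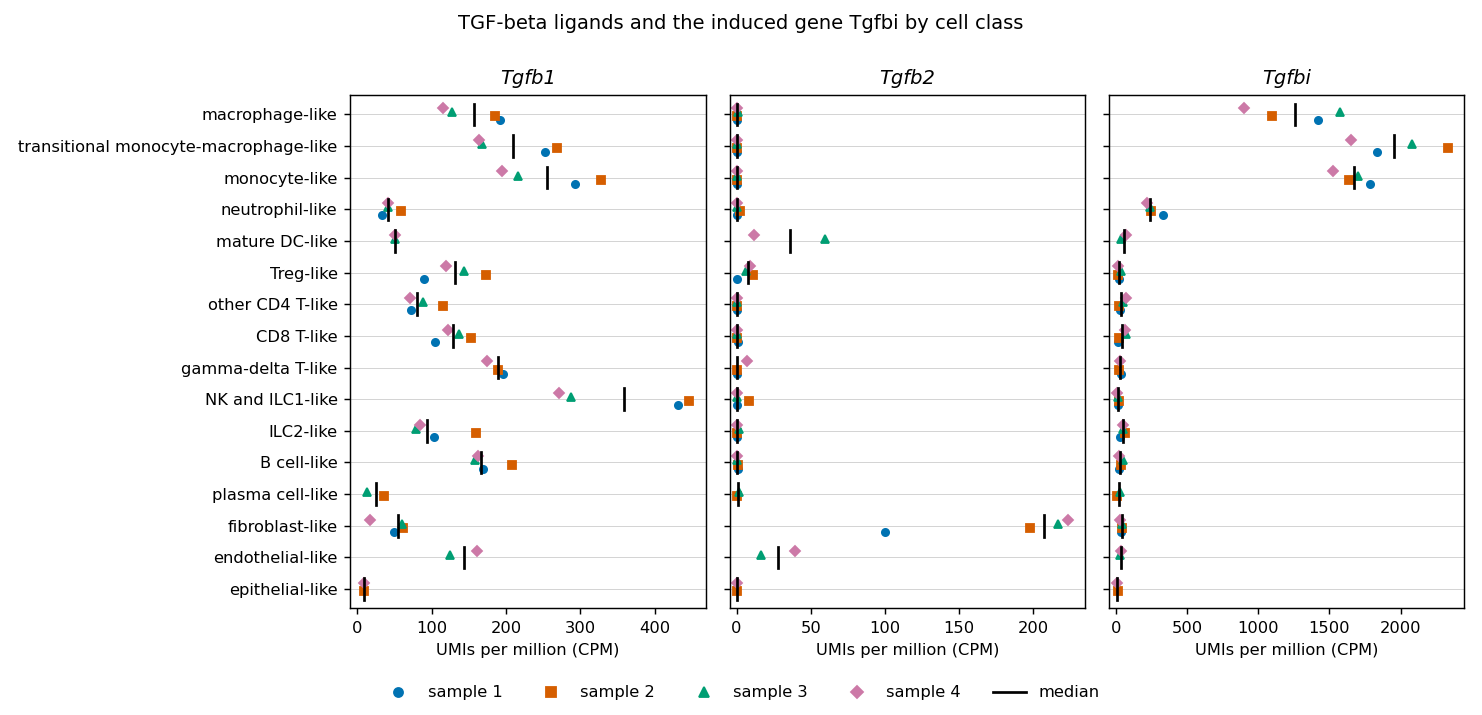
Level of Tgfb1, Tgfb2 and Tgfbi (CPM, linear axes that differ between panels) by cell class, with a point for each sample of at least 50 cells and a black line at the median. Tgfb1 spans most classes, Tgfb2 is highest in fibroblast-like cells at a median of 207 CPM, and Tgfbi reaches medians of 1256 to 1955 CPM in the 3 classes of the monocyte and macrophage lineage.

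The ligands and Tgfbi differ in their promoters as well as in their levels. The windows below are those before the gene start of both ligands and Tgfbi, as RefSeq gives them on GRCm38.p6, and they are shown because AhR and the SMAD proteins act through short DNA elements. They were searched on both strands for the core of the xenobiotic response element that AhR binds (GCGTG), the SMAD element (CAGAC), an AP-1 site (TGANTCA), the GC box (GGGCGG) and the TATA box (TATAAA). Capitals mark every match, in the direction in which the gene is read, and adjoining capitals can hold 2 matches that overlap or touch. Tgfb1 lies on the plus strand (window chr7:25686752-25687001), Tgfb2 on the minus strand (chr1:186705990-186706239) and Tgfbi on the plus strand (chr13:56609336-56609522).
Tgfb1: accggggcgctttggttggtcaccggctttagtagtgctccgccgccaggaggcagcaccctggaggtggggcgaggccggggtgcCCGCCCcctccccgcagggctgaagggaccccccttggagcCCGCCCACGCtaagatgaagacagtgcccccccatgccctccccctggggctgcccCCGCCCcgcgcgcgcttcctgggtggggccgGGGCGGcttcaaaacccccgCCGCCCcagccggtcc
Tgfb2: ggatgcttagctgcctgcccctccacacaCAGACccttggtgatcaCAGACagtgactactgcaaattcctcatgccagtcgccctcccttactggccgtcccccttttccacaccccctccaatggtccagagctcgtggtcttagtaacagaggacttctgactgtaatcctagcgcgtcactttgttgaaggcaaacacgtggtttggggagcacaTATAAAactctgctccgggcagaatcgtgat
Tgfbi: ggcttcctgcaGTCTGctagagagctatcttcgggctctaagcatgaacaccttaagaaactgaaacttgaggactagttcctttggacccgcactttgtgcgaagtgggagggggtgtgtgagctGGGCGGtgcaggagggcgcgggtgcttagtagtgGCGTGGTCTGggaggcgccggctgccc

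The Tgfb1 window held 5 GC boxes, 1 xenobiotic response element core and none of the other motifs. The Tgfb2 window held 2 SMAD elements and 1 TATA box, and the Tgfbi window held 2 SMAD elements, 1 GC box and 1 xenobiotic response element core. Of 32851 RefSeq windows of 250 bases, 28.2% held the xenobiotic response element core, 42.2% the SMAD element, 32.7% the GC box, 12.4% the TATA box and 6.75% the AP-1 site. The Tgfbi window is shorter, 187 bases, because the rest of its RefSeq window lies past the annotated gene start. These matches are letters in a window, and the counts, which are summed per gene, do not show which start was used.

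Tgfbr1 and Tgfbr2, the type I and type II receptors that act in 1 complex, were highest in different classes. Tgfbr1 was highest in macrophage-like cells, at 211, 218, 251 and 195 CPM, and in fibroblast-like cells, at 172, 173, 243 and 164 CPM. Monocyte-like cells had 155, 55.2, 155 and 101 CPM, all below the macrophage-like range. Neutrophil-like cells had 73.6, 70.7, 94.3 and 90.4 CPM. Treg-like cells had 62.9, 37.9, 62.3 and 58.2 CPM. Small classes stood out: pDC-like cells, plasmacytoid DCs, had 473, 685, 1078 and 598 CPM from 50 to 70 UMIs in 8 to 12 cells per sample. Mast cell-like cells had 268, 308, 166 and 324 CPM from 3 to 110 UMIs.

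By its medians, Tgfbr2 was highest in other CD4 T-like, B cell-like, CD8 T-like and gamma-delta T-like cells. Fibroblast-like and endothelial-like cells followed, at medians of 304 and 287 CPM. NK and ILC1-like, ILC2-like, Treg-like and plasma cell-like cells had lower medians than these. Other CD4 T-like cells had 788, 781, 391 and 514 CPM, B cell-like cells 515, 473, 389 and 440.2 CPM, and CD8 T-like cells 446, 489, 394 and 405 CPM. These 3 classes overlapped with each other, and samples 3 and 4 were the lower pair in each. Treg-like cells lay below them in every sample, with 233, 278, 112 and 159 CPM. Macrophage-like cells had 67.6, 154, 73.4 and 102 CPM and monocyte-like cells 38.9, 56.1, 32.6 and 46.7 CPM. In neither of these were samples 3 and 4 the lower pair. Mature DC-like cells were lowest, with 15.5 and 16.0 CPM in samples 3 and 4. The ratio of Tgfbr1 to Tgfbr2 UMIs was 1.42 to 3.42 in macrophage-like cells, 0.206 to 0.304 in B cell-like cells and 0.0536 to 0.109 in other CD4 T-like cells, without overlap.

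**Figure D4:**
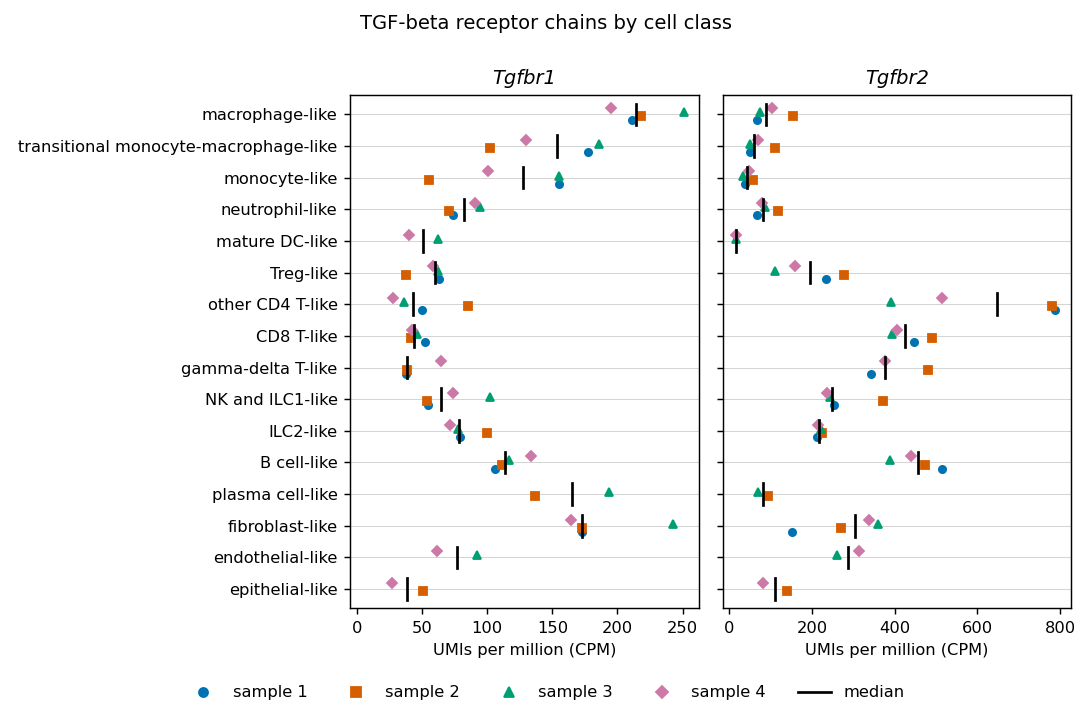
Level of the receptors Tgfbr1 and Tgfbr2 (CPM, linear axes that differ between panels) by cell class, with a point for each sample of at least 50 cells and a black line at the median. Tgfbr1 is highest in macrophage-like cells at a median of 214 CPM, and Tgfbr2 in other CD4 T-like cells at a median of 648 CPM.

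Tgfbi was high in the monocyte and macrophage lineage and low outside it. Transitional cells had 1833, 2332, 2077 and 1654 CPM, monocyte-like cells 1784, 1639.95, 1698 and 1525 CPM, and macrophage-like cells 1418, 1094, 1572 and 901 CPM. Neutrophil-like cells had 328, 243, 241 and 219 CPM, below every sample of the lineage and above every other ranked class. The ratio to the monocyte-like level was 0.142 to 0.184 in neutrophil-like cells, where Lyz2 stood at 0.104 to 0.151 and F13a1 at 0.0203 to 0.0745 of theirs. In B cell-like cells the ratio was 0.0117 to 0.0302, with Lyz2 at 0.0114 to 0.0305 and F13a1 at 0.00709 to 0.0384. Within sample 2 it was 0.0223, above the 0.0150 of Lyz2 and the 0.0134 of F13a1, and in samples 1 and 4 it was slightly above Lyz2. The part of stray RNA in these values was not tested. The remaining ranked classes had medians of 8.71 to 53.4 CPM. The gates were chosen in part for low Tgfbi in lymphocytes, so those low values are no independent result. The same holds for differences in Tgfbi between lymphocyte classes.

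Classes that differ in a named way were compared in 8 pairs, with samples as replicates and both classes of a sample in 1 block, by edgeR's quasi-likelihood test. A gene is called at a Benjamini-Hochberg adjusted p under 0.05 over all genes tested, and errors are standard errors. These p-values rest on the spread between the pooled samples, and edgeR shares information on that spread across genes. The plasma cell-like and fibroblast-like pairs have 2 samples each, which say little on the spread of a single gene. Small p-values in those pairs are therefore no measure of how well a difference repeats between samples. Fold changes use TMM scaling, which sets the bulk of genes to no change. Under scaling to the total count the median of all genes moved by 0.76 on the log2 scale for macrophage-like against neutrophil-like cells, by -1.05 for plasma cell-like against B cell-like cells, by 0.17 for macrophage-like against monocyte-like cells and by 0.18 for cDC2-like against cDC1-like cells. The other 4 pairs moved by less than 0.1.

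Treg-like cells differed from other CD4 T-like cells in 4 of 7 members tested, where 26.4% of all 7363 genes tested were called (14.7% higher and 11.7% lower). CD4 T cells with an intermediate number of Treg markers entered neither side. The median depth was 9922, 7633, 10713 and 10835.5 UMIs in Treg-like cells of samples 1 to 4. In other CD4 T-like cells it was 5858, 4561.5, 6643 and 6195 UMIs. The 2 classes thus also differed in depth, on which the detection of markers depends, and the part of depth in these differences was not tested. Il10 was higher by 3.45 ± 0.26 on the log2 scale (adjusted p = 1.83e-05), in 4 of 4 samples and without overlap. Tgfbr2 was lower, at -1.77 ± 0.13 (adjusted p = 1.83e-05), in 4 of 4 samples and without overlap. Tgfb1 was higher by 0.50 ± 0.16 (adjusted p = 0.0354) and Tgfbi lower at -0.99 ± 0.31 (adjusted p = 0.0383), both with ranges that overlapped. These last 2 calls were lost without the replicate block, at adjusted p = 0.15 for Tgfb1 and 0.134 for Tgfbi, and when samples were left out. Tgfb1 did not pass without sample 2, 3 or 4 (adjusted p = 0.0964 to 0.131), nor Tgfbi without sample 1, 2 or 4 (adjusted p = 0.0683 to 0.22). Under scaling to the total count Tgfbi also did not pass (-0.91, adjusted p = 0.0555). Its median ratio to the monocyte-like level was 0.0111 in Treg-like and 0.0212 in other CD4 T-like cells. Lyz2 stood at 0.00982 and 0.0135 and F13a1 at 0.00608 and 0.0131, and the part of stray RNA was not tested. The gates were chosen in part for low Tgfbi in lymphocytes, so the Tgfbi call is no independent result. Il10ra, Il10rb and Tgfbr1 did not pass, with 0.04 ± 0.32, 0.55 ± 0.29 and 0.09 ± 0.32. By scaling to the total count, 66.0% of the genes called were higher in Treg-like cells, against 55.5% with TMM.

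**Figure D5:**
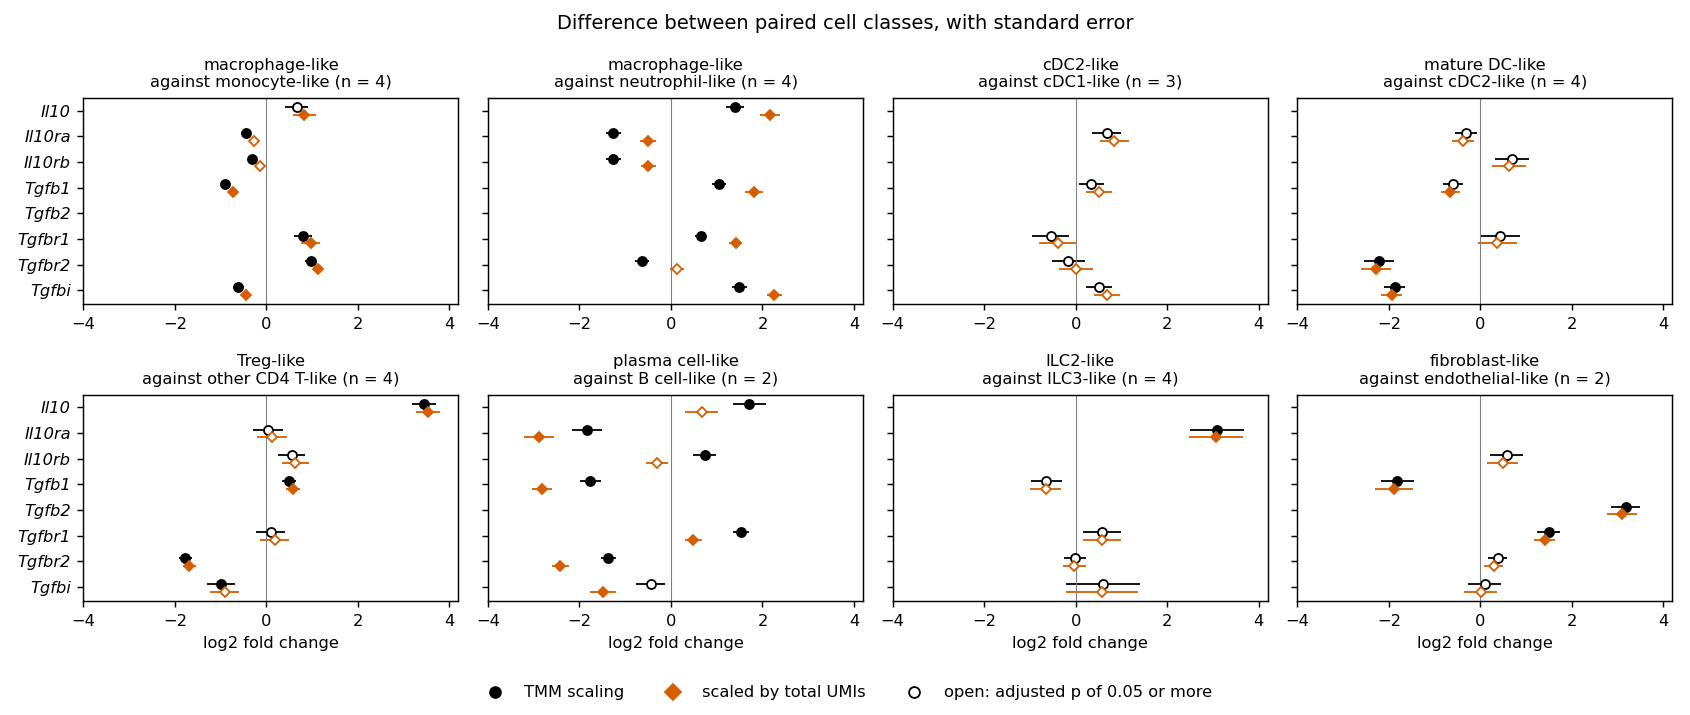
Log2 fold change of each member tested in the 8 pairs of classes, with standard errors as bars, for TMM scaling (black circles) and scaling to total UMIs (orange diamonds), filled at an adjusted p under 0.05. Il10 in Treg-like cells against other CD4 T-like cells stands at 3.45, and Tgfb2 in fibroblast-like against endothelial-like cells at 3.18.

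Of the other genes of the axis, 15 of 26 tested were called between Treg-like and other CD4 T-like cells (57.7%), and 26.4% of all genes. Of 6 tested genes for TGF-beta ligand storage and activation, 3 were higher and none lower, with a list median of 1.14 against -0.003 over all genes tested. Itgb8, an integrin chain that releases TGF-beta, had 261 UMIs in Treg-like cells over the samples and 1 UMI in other CD4 T-like cells. Lrrc32, which holds latent TGF-beta on the surface of Tregs, was higher by 3.38 ± 0.57 (adjusted p = 0.00197). Of 8 genes for IL-10 signalling and Il10 transcription, 4 were higher and 2 lower, among them the transcription factors Prdm1, at 1.40 ± 0.20 (adjusted p = 0.000758), and Maf, at 1.24 ± 0.30 (adjusted p = 0.0116). The co-receptor Tgfbr3 was lower, at -2.04 ± 0.20 (adjusted p = 9.89e-05). Of 10 tested genes of TGF-beta signalling and feedback none was higher and 4 were lower, including Smad4, at -0.82 ± 0.15 (adjusted p = 0.00247), and the inhibitor Smad7, at -0.78 ± 0.17 (adjusted p = 0.00716). Il20rb, a receptor chain of other IL-10 family cytokines, was lower, at -1.09 ± 0.36 (adjusted p = 0.0452), and did not pass under scaling to the total count (adjusted p = 0.0581).

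Macrophage-like cells differed from monocyte-like cells in 6 of 7 members tested, against a background of 41.8% of 10588 genes (20.8% higher and 21.0% lower). The ligand Tgfb1 was lower, at -0.90 ± 0.09 (adjusted p = 6.99e-05), and both receptors were higher, Tgfbr2 by 0.97 ± 0.11 (adjusted p = 0.000206) and Tgfbr1 by 0.81 ± 0.20 (adjusted p = 0.0114). Each of these moved the same way in 4 of 4 samples. Tgfbi was lower, at -0.61 ± 0.11 (adjusted p = 0.00251), as were Il10ra, at -0.44 ± 0.10 (adjusted p = 0.0083), and Il10rb, at -0.31 ± 0.10 (adjusted p = 0.0317). Il10 had 0.66 ± 0.26 and did not pass (adjusted p = 0.0651), but passed under scaling to the total count (0.83, adjusted p = 0.0252) and without sample 3 (0.99, adjusted p = 0.0184). Under that scaling Il10ra and Il10rb no longer passed (adjusted p = 0.0506 and 0.249), and 70.2% of the genes called were higher in macrophage-like cells against 49.7% with TMM. Il10ra was also lost without sample 3 (adjusted p = 0.0521), and Il10rb without sample 1, 3 or 4 (adjusted p = 0.0512 to 0.174). Without the replicate block 3 members were called, and Il10ra, Il10rb and Tgfbr1 were lost at adjusted p = 0.153, 0.271 and 0.0745.

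Of 8 tested genes for ligand storage and activation, 4 were higher and 3 lower in macrophage-like than in monocyte-like cells, with a list median of 0.08 against 0.01 over all genes. Tgfb3, the third TGF-beta ligand, was higher by 3.63 ± 0.29 (adjusted p = 2.93e-05), from 4.79 to 12.8 CPM in macrophage-like cells against 0.371 to 0.774 CPM in monocyte-like cells. Itgb8 was lower, at -3.54 ± 0.34 (adjusted p = 7.65e-05). The endothelial-type receptors Acvrl1 and Eng were higher, by 1.30 ± 0.12 (adjusted p = 7.11e-05) and 1.29 ± 0.34 (adjusted p = 0.0147). They were 2 of 3 tested genes of the list of receptors and accessory receptors, with none lower. Of 11 signalling and feedback genes 2 were higher and 1 lower, among them the TGF-beta-induced gene Pmepa1, at 1.74 ± 0.25 (adjusted p = 0.000639). Of 8 genes of IL-10 signalling and Il10 transcription 2 were higher, with Maf at 0.95 ± 0.17 (adjusted p = 0.00217), and 2 lower, with Bcl3 at -0.95 ± 0.09 (adjusted p = 8.5e-05). The 1 tested gene of the IL-10 family list did not pass.

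Macrophage-like and neutrophil-like cells differed in all 7 members tested, where 72.1% of 10947 genes were called (36.6% higher and 35.4% lower). Il10, Tgfb1, Tgfbr1 and Tgfbi were higher in macrophage-like cells, by 1.40 ± 0.19, 1.05 ± 0.16, 0.65 ± 0.13 and 1.49 ± 0.16 (adjusted p = 3.05e-05 to 0.00154), each in 4 of 4 samples without overlap. The receptor chains Il10ra and Il10rb were lower, at -1.26 ± 0.17 and -1.26 ± 0.15 (adjusted p = 0.00011 and 7.08e-05). Both were lower in 4 of 4 samples, with CPM ranges that overlapped. They had only -0.50 and -0.49 under scaling to the total count (adjusted p = 0.0261 and 0.0143). Tgfbr2 was lower with TMM, at -0.63 ± 0.15 (adjusted p = 0.00476), but not under scaling to the total count, at 0.13 (adjusted p = 0.445), and its CPM was higher in 2 samples and lower in 2. It did not pass without the replicate block (adjusted p = 0.0739). Under that scaling 75.5% of the genes called were higher in macrophage-like cells, against 50.8%. With mixed cells kept Il10ra and Il10rb did not pass, at -0.30 and -0.21 (adjusted p = 0.179 and 0.259).

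Between macrophage-like and neutrophil-like cells 22 of 31 tested list genes were called, 71.0%, near the 72.1% of all genes. In ligand storage and activation 3 of 7 tested genes were higher in macrophage-like cells and 1 lower, led by Ltbp3, a latent TGF-beta binding protein, at 2.57 ± 0.35 (adjusted p = 0.000141), and Tgfb3, at 2.20 ± 0.47 (adjusted p = 0.00219). Of 4 genes of the list of receptors and accessory receptors 1 was higher and 2 lower, with Tgfbr3 at -2.59 ± 0.29 (adjusted p = 3.93e-05) and Acvrl1 at -2.47 ± 0.18 (adjusted p = 2.87e-06). Acvrl1, best known from endothelium, had 113 to 182 CPM in neutrophil-like cells. In signalling and feedback 2 of 11 genes were higher, among them Pmepa1 at 2.27 ± 0.23 (adjusted p = 2.08e-05), and 6 were lower. Under scaling to the total count 5 of these 11 were higher and 1, Smad3, lower. In IL-10 signalling and Il10 transcription 3 of 8 were higher, with Maf at 2.48 ± 0.18 (adjusted p = 2.81e-06), and 3 lower, with Bcl3 at -2.02 ± 0.13 (adjusted p = 1.42e-06). Il20rb was lower with TMM, at -1.23 ± 0.26 (adjusted p = 0.00206), and did not pass under scaling to the total count, at -0.47 (adjusted p = 0.126).

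The DC comparisons rest on few cells. A minimum of 50 cells could not be met, and a minimum of 10 cells per class and sample was used. Between mature DC-like and cDC2-like cells 2 of 6 members tested differed, where 36.9% of 5212 genes were called (19.0% higher and 17.9% lower). Tgfbr2 was lower in mature DC-like cells, at -2.22 ± 0.33 (adjusted p = 0.000298), from 11.6, 34.6, 15.5 and 16.0 CPM against 66.6, 86.5, 113 and 73.5 CPM. Tgfbi was lower, at -1.87 ± 0.23 (adjusted p = 8.31e-05), from 19.3, 34.6, 33.7 and 73.2 CPM against 112, 111, 125 and 253 CPM, though not with mixed cells kept (-0.15, adjusted p = 0.683). Tgfb1 had -0.59 ± 0.22 (adjusted p = 0.0511) and passed under scaling to the total count (adjusted p = 0.0319). Il10rb had 0.69 ± 0.38 and passed when sample 1 was left out (1.28, adjusted p = 0.0322). Of the lists, 3 of 7 tested genes of IL-10 signalling and Il10 transcription were higher, with Stat3 at 1.02 ± 0.16 (adjusted p = 0.000376) and Tyk2 at 0.98 ± 0.33 (adjusted p = 0.0368). In signalling and feedback 3 of 10 were higher and 2 lower, led by Smurf1, which targets the receptors for degradation, at 1.93 ± 0.28 (adjusted p = 0.000266), and Smad3, at -1.77 ± 0.30 (adjusted p = 0.000834). Eng, the 1 accessory receptor tested, was higher by 1.75 ± 0.44 (adjusted p = 0.00857), and none of 4 genes of storage and activation passed.

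For cDC2-like against cDC1-like cells edgeR called none of the 5 members tested over 3 samples, where 15.0% of 4920 genes were called (7.42% higher and 7.58% lower). DESeq2 also called none, and 0 members had an unadjusted p under 0.05. With a stricter gate Tgfbi was called (1.33, adjusted p = 0.0116). Il10ra had 0.68 ± 0.32 (adjusted p = 0.187), from a median of 123 against 67.4 CPM, and Tgfbi 0.50 ± 0.28 (adjusted p = 0.272). Among the lists, Bcl3 was higher by 4.13 ± 0.61 (adjusted p = 0.000588) and Nrros, which holds latent TGF-beta on myeloid cells, by 1.19 ± 0.31 (adjusted p = 0.0188), while Acvrl1 was lower, at -1.72 ± 0.37 (adjusted p = 0.00645), as was Pmepa1, at -1.09 ± 0.29 (adjusted p = 0.0213). These were the only list genes called, of 6, 4, 1 and 10 tested. By scaling to the total count, 66.5% of the genes called were higher in cDC2-like cells, against 49.5%.

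In ILC2-like against ILC3-like cells, also with a minimum of 10 cells, 1 of 5 members tested passed, where 9.05% of 4132 genes were called (3.87% higher and 5.18% lower). Il10ra was higher in ILC2-like cells by 3.08 ± 0.59 (adjusted p = 0.00647), in 4 of 4 samples and without overlap. It rested on 35, 57, 55 and 91 UMIs in ILC2-like cells against 2, 1, 0 and 2 in ILC3-like cells. It did not pass with a stricter gate, which left 2 samples (1.79, adjusted p = 0.0929). Tgfb1 had -0.64 ± 0.34 and Tgfbr2 -0.02 ± 0.24, neither called. Of 6 genes of IL-10 signalling and Il10 transcription only Stat3 was called, lower at -1.25 ± 0.24 (adjusted p = 0.00757), and of 4 genes of storage and activation only Nrros, higher by 1.99 ± 0.44 (adjusted p = 0.0148). None of 10 signalling and feedback genes passed.

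Plasma cell-like and B cell-like cells were compared in samples 2 and 3, the samples with at least 50 plasma cell-like cells. In this pair 6 of 7 members were called, where 48.0% of 10028 genes were called (25.4% higher and 22.6% lower). Tgfb1 was lower in plasma cell-like cells, at -1.77 ± 0.23 (adjusted p = 9.29e-06), from 36.1 and 13.7 CPM in plasma cell-like cells against 208 and 158 CPM in B cell-like cells. Il10ra was lower, at -1.84 ± 0.33 (adjusted p = 0.000254), and Tgfbr2, at -1.37 ± 0.17 (adjusted p = 3.9e-06). Tgfbr1 was higher, by 1.53 ± 0.17 (adjusted p = 1.78e-06), from 137 and 194 against a median of 114 CPM. Il10 was higher by 1.71 ± 0.37 (adjusted p = 0.00106), at a median of 17.2 against 8.60 CPM, and did not pass under scaling to the total count (0.67, adjusted p = 0.0927) or with mixed cells kept (0.38, adjusted p = 0.504). Il10rb, higher by 0.74 ± 0.25 with TMM (adjusted p = 0.0212), turned to -0.31 under scaling to the total count (adjusted p = 0.253), and its CPM was lower in both samples. It did not pass with DESeq2 (adjusted p = 0.254) or without the replicate block (adjusted p = 0.0743). Tgfbi had -0.45 ± 0.32 and did not pass (adjusted p = 0.266), but passed under scaling to the total count (-1.49, adjusted p = 2.82e-06). Under that scaling 14.9% of the genes called were higher in plasma cell-like cells, against 53.0%.

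The list genes between plasma cell-like and B cell-like cells included Prdm1, the regulator of plasma cell identity, higher by 4.62 ± 0.21 (adjusted p = 2.56e-11), and Nfil3, by 3.01 ± 0.25 (adjusted p = 5.74e-08). These were 2 of 3 higher genes among 8 of IL-10 signalling and Il10 transcription, with 4 lower. In storage and activation 2 of 5 tested genes were lower and none higher, Nrros at -2.35 ± 0.27 (adjusted p = 2.63e-06) and Tgfb3 at -1.29 ± 0.46 (adjusted p = 0.0293). In signalling and feedback 1 of 10 was higher and 6 lower, with a list median of -0.98 against -0.01 over all genes, and under scaling to the total count none was higher and 9 lower. The largest changes were Smad3, at -2.40 ± 0.23 (adjusted p = 2.55e-07), and Smad2, at -1.59 ± 0.22 (adjusted p = 1.76e-05).

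Fibroblast-like and endothelial-like cells, compared in samples 3 and 4, differed in 3 of 6 members, where 35.0% of 8628 genes were called (18.6% higher and 16.4% lower). Tgfb2 was higher in fibroblast-like cells by 3.18 ± 0.32 (adjusted p = 4.54e-07), from 217 and 224 against 16.4 and 39.2 CPM. Tgfbr1 was higher, by 1.49 ± 0.24 (adjusted p = 0.000104), and Tgfb1 lower, at -1.81 ± 0.37 (adjusted p = 0.000889), from 60.6 and 17.6 against 125 and 162 CPM. DESeq2 did not call Tgfb1 (-1.99, adjusted p = 0.0503). Tgfbr2 had 0.38 ± 0.21 and Tgfbi 0.09 ± 0.36, neither called. Of 10 tested genes of storage and activation 5 were higher and 3 lower, and Ltbp1, which anchors latent TGF-beta in the matrix, was higher by 3.05 ± 0.27 (adjusted p = 1.02e-07). Itgb8 had 110 UMIs against 0 and was at least 9.60-fold higher in fibroblast-like cells with a floor of 3 UMIs over both samples, a bound that was 3.20-fold without sample 3 and 6.26-fold without sample 4. Eng was lower, at -3.31 ± 0.24 (adjusted p = 1.08e-08), and Tgfbr3 higher, by 1.81 ± 0.23 (adjusted p = 5.99e-06). Of the 4 genes of the list of receptors and accessory receptors 1 was higher and 2 lower. In signalling and feedback 5 of 11 were higher and 1 lower, led by Pmepa1, at 2.18 ± 0.24 (adjusted p = 1.14e-06), and Smad3, at 1.65 ± 0.26 (adjusted p = 6.6e-05). In IL-10 signalling and Il10 transcription 1 of 7 was higher, Jak1 at 0.94 ± 0.20 (adjusted p = 0.00143), and 1 lower, Prdm1 at -2.23 ± 0.25 (adjusted p = 2.09e-06), and Il20rb was lower at -1.37 ± 0.43 (adjusted p = 0.019).

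The pattern of each member over the 16 class medians was set beside those of 12489 genes by Pearson's r of log2(CPM + 1), as a description. Tgfbi was most like Csf1r (0.983), Cd68 (0.979) and Mpeg1 (0.977), of which Csf1r and Cd68 are markers used to gate the lineage. Tgfb2 was most like B3galt1 (0.987), Samd14 (0.953) and Cyp7b1 (0.945). Il10ra was most like the inhibitory receptor genes Lilr4b (0.923) and Lilrb4a (0.922) and the lysosomal enzyme gene Gla (0.919), and Il10rb like Arl11 (0.933), Pstpip2 (0.93) and AI839979 (0.928). The genes nearest to Il10 were Gm2a (0.877), Mtfr2 (0.844) and Ncapg2 (0.801). Tgfb1 was most like B9d2 (0.915), Clcf1 (0.896) and Ifi203 (0.886). B9d2 lies on the same strand and ends 443 bases before Tgfb1 without overlap. The nearest genes to Tgfbr1 were Man2a1 (0.844), 1700017B05Rik (0.798) and Tmem251 (0.795), and to Tgfbr2 they were Isca1 (0.922), Trak2 (0.908) and Dpy19l3 (0.899). All classes of a sample come from 1 library and share its depth and its free RNA.

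By GENCODE M21 on GRCm38, Il10 lies at chr1:131019845-131024974, Il10ra at chr9:45253837-45269149, Il10rb at chr16:91406164-91425834 and Tgfb1 at chr7:25687002-25705077. Tgfb2 lies at chr1:186622792-186705989, Tgfbr1 at chr4:47353222-47414931, Tgfbr2 at chr9:116084293-116175360 and Tgfbi at chr13:56609523-56639562. Tgfb2 overlaps the antisense gene Gm29491 and Il10ra the pseudogene Gm20612 on the opposite strand.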

How the data were processed

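For each of 4 libraries the authors deposited a matrix of UMI counts, not normalized (11425, 13730, 11581 and 8493 cells; 72509408 to 135516016 UMIs). Per the file headers the counts came from Cell Ranger 7.0.1, while the submitters' processing notes name Cell Ranger 5.0.0, STAR, Seurat and mm10; the conflict was not resolved. No cell annotation was used here.

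Cells with at least 200 genes and under 20% mitochondrial UMIs were kept, and a class needed a set number of detected markers (2 to 4 of the 4 to 7 in a lineage list), set after seeing how many markers cells held. The members, lists and markers were chosen with earlier results of these data known. Of 3 gate rules tried with member levels in view, marker number alone was kept, partly because lymphocytes then held less Tgfbi. A rule that also asked for a share of marker UMIs is an alternative, and a rule with fewer markers for rare classes was dropped. No doublet caller was run: cells of more than 1 lineage or subset were left out. An alternative keeps the cells of more than 1 lineage, and another leaves out the 5% of cells with most UMIs. UMIs were summed per class and sample and given as CPM with exact 95% Poisson intervals in the tables, which cover counting error only; 3 UMIs were the floor for a zero count.

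Pairs of classes were tested on summed counts with edgeR 4.0.16 in R 4.3.3 (filterByExpr, TMM, quasi-likelihood F test, two-sided, sample as a block, Benjamini-Hochberg over all genes). The pairing comes from the design, since both classes of a sample come from the same mice, so the block was not tested further. A minimum of 50 cells per sum was planned. It could not be met for cDC2-like against cDC1-like, mature DC-like against cDC2-like and ILC2-like against ILC3-like cells, and 10 cells, chosen after the cell numbers were seen, was used there. Alternatives were DESeq2 1.42.0, RLE and total-count scaling, no low-count filter, no block, all classes in one fit, other cell filters and gates, and leaving out each sample. The script was tested on simulated data. Named genes were the 8 members, of each list the up to 2 genes with the largest fold change among those called, and for each member the 3 most similar genes among those at 10 CPM or more in a class median. The values of 1 list gene that the rule names are not reported here. List genes named for their levels alone, the third genes of lists and the sequences shown were chosen after their values were seen. Python 3.11.15, numpy 2.4.6, scipy 1.17.1, pandas 2.3.3 and matplotlib 3.10.9 were used. Coordinates are from GENCODE M21 (GRCm38); promoter windows from RefSeq (GRCm38.p6) matched 5 of 8 members.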

Additional observations from a re-analysis of the deposited data

Results flagged for a closer look

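Of 87 groups of 4 samples examined (a member in a class), 6 held a sample whose gap to its nearest neighbour, over the whole range, passed Dixon's 95% critical value for 4 samples. Chance flags about 1 in 20 groups of normally distributed values. That rate does not hold where the other samples of a group have no UMI, since a single UMI is then flagged. Tgfbr1 in fibroblast-like cells was 243 CPM in sample 3, from 713 UMIs, above the other samples. Tgfbr2 in NK and ILC1-like cells was 372 CPM in sample 2, from 174 UMIs. The other 4 concern Tgfb2 at a few UMIs. It had 8.55 CPM in NK and ILC1-like cells of sample 2 (4 UMIs) and 1.99 CPM in ILC2-like cells of sample 3 (1 UMI). In sample 3 it also had 1.32 CPM in macrophage-like cells (9 UMIs) and 0.517 CPM in monocyte-like cells (5 UMIs).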

How the results depend on the processing

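Over the alternatives, 668 member fold changes kept their direction and their side of the threshold, 41 lost it, 12 gained it and 35 turned sign. The share-of-marker-UMI gate, the 10-cell minimum, total-count scaling and leaving samples out of the fold bounds were chosen after seeing the data. For macrophage-like against monocyte-like cells 3 of the 6 called members passed with all classes in one fit, and 3 without the replicate block. For Treg-like against other CD4 T-like cells 2 of 4 passed with DESeq2, without the replicate block, with the stricter gate (2 samples) and without the cells with most UMIs, and 2 to 3 when each sample was left out. The stricter gate gave 1 in place of 0 for cDC2-like against cDC1-like cells and 0 in place of 1 for ILC2-like against ILC3-like cells. Keeping mixed cells gave 1 in place of 2 for mature DC-like against cDC2-like cells. The block moved no other count of called members by over 1.5 times. A stricter gate and leaving out samples could not be run for plasma cell-like against B cell-like and fibroblast-like against endothelial-like cells.

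Called members that turned sign were Tgfbr2, macrophage-like against neutrophil-like (0.13, total-count scaling), Il10rb, plasma cell-like against B cell-like (-0.31, total-count scaling), and Tgfbi, Treg-like against other CD4 T-like (0.24, mixed cells kept). The others had not been called. For cDC2-like against cDC1-like cells Tgfbr1 turned to 0.084 (marker share) and 0.64 (stricter gate), and Tgfbr2 to 0.29 (marker share), 0.26 (mixed cells kept), 0.50 (stricter gate), 0.014 (total-count scaling) and, over the samples left out, -0.65 to 0.21. For mature DC-like against cDC2-like cells Tgfbr1 turned to -0.21 (marker share) and -0.79 (stricter gate). For Treg-like cells Tgfbr1 turned to -0.033 (all classes in one fit), -0.017 (mixed cells kept), -0.0047 (no replicate block) and -0.14 to 0.60 (samples left out), and Il10ra to -0.79 (stricter gate) and -0.25 to 0.38 (samples left out). Tgfbi in plasma cell-like against B cell-like cells turned to 0.072 (marker share) and 0.21 (mixed cells kept). For ILC2-like against ILC3-like cells Tgfbr2 turned to 0.22 (all classes in one fit), 0.0033 (500 genes per cell), 0.27 (no low-count filter), 0.17 (stricter gate) and -0.072 to 0.043 (samples left out), Tgfbi to -0.22 (marker share) and -0.060 to 0.46 (samples left out), and Tgfbr1 to -0.11 (stricter gate). For fibroblast-like against endothelial-like cells Tgfbr2 turned to -0.36 and Tgfbi to -0.23 (at least 10 cells), and Tgfbi to -0.091 (marker share). The causes were not tested.

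Counts of all genes called moved by over 1.5 times as follows. Macrophage-like against monocyte-like cells had 4430, and 2885 with all classes in one fit or 2451 without the replicate block. For cDC2-like against cDC1-like cells 738 became 412 (DESeq2), 443 (no replicate block), 1123 (marker share) and 441 (without sample 2). Treg-like cells had 1945, and 1253 with DESeq2 or 1186 without sample 1. With DESeq2, 4813 became 2767 for plasma cell-like and 3019 became 1329 for fibroblast-like cells. ILC2-like cells had 374, and 1144 (all classes in one fit), 766 (no low-count filter), 240 (stricter gate) or 225 (without sample 2).

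The class with the highest level was kept for 5 of 8 members with mixed cells kept: Il10ra, Il10rb and Tgfbi were then highest in monocyte-like cells, at 122, 108 and 1487 CPM. Tgfb1 was highest in monocyte-like cells with the stricter gate, which left no NK and ILC1-like value. The median share of cells with an Il10 UMI at 2000 UMIs, and without thinning, was 29.2% and 48.6% in Treg-like, 15.7% and 28.1% in macrophage-like, 11.4% and 20.8% in monocyte-like, 5.56% and 9.78% in neutrophil-like and 0.896% and 3.47% in B cell-like cells.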
